A study of Mus musculus with 74 samples.

Results

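Zkscan17 (Nizp1), a KRAB zinc finger protein that also carries a SCAN domain, was profiled by ChIP-seq in F9 embryonal carcinoma (EC) cells, and the rows of the deposited peak table under its name were taken as its peaks. They were 1107 of 53255 rows, or 2.08% of the table. The study expressed epitope-tagged mouse KRAB zinc finger proteins, 1 sample for each, and 74 samples were labelled in all. Zkscan17 carried a triple HA tag at its N-terminus, and the cells held it on a stably integrating vector, so the binding is that of an added copy in a pool of puromycin-resistant clones. The peaks were called against the F9 input and an HA control ChIP at p under 1e-05 and enrichment over 10. The methods describe these as low-stringency settings, for samples with too few peaks at stricter ones, and kept only peaks called against both controls. The comparison was with 29 of the 30 other F9 samples called against that HA control, those with rows in the table, which held 11576 peaks, each sample carrying another tagged KRAB zinc finger protein with a C-terminal tag or, in 6 samples, an N-terminal one. Of these, 6 had the same thresholds as Zkscan17 and 23 had a p threshold of 1e-10. There was no replicate of the Zkscan17 ChIP, so the intervals below are 95% Wilson intervals on counts of peaks and cover counting error only. Total library depths are not given in the peak table, and 11429 tags lay in the 1107 peaks.

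KRAB zinc finger proteins contact DNA through arrays of zinc fingers and, through the KRAB domain, recruit the corepressor KAP1 (Trim28), around which heterochromatin marked by H3K9me3 is built. Many of them bind retrotransposons in embryonic cells. The SCAN domain is a protein interaction domain through which members of the family pair with each other, and Zkscan17 is known as a partner of the H3K36 methyltransferase NSD1. In the annotated translations the Zkscan17 protein had 585 residues and 4 zinc fingers, against 3 to 22 and a median of 12 in the other 28 F9 HA proteins with a translated transcript. It was the single one among 63 assayed proteins that aligned to Scand1, a protein consisting of a SCAN domain, with 62.7% identity over 59 residues.

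The kinds of sequence on which the results turn are shown here on the forward strand. The first kind is a run of A or T beside the summit, with the run of at least 12 letters in capitals. Both examples are single-copy, rank 5 and 8 by score, and begin 50 bp before the summit.
Manba intron, mm9 chr3:135215920-135216036, + strand: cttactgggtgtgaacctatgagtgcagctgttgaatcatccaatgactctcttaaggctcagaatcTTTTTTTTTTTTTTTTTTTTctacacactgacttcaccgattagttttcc
Near Gm7429, mm9 chrX:112090807-112091039, + strand: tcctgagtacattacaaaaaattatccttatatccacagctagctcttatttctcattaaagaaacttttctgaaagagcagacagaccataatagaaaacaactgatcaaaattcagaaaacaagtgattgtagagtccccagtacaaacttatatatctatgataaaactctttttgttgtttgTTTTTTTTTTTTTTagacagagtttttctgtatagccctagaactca
The next kind is the coding sequence of the Zkscan17 gene itself, with coding bases in capitals. This window had the highest fold enrichment of all Zkscan17 peaks.
Zkscan17 coding exon, mm9 chr11:59317115-59317314, + strand: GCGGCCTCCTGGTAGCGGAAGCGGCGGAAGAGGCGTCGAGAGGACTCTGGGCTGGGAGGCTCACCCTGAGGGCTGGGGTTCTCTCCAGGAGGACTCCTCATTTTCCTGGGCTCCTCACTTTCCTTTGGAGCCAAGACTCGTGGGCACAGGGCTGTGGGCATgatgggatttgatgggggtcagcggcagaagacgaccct
Another kind is a tandem of AGGTCA, here in capitals, in introns of Capn2 and Pld1, which ranked 3 and 4 by score.
Capn2 intron, mm9 chr1:184431225-184431424, + strand: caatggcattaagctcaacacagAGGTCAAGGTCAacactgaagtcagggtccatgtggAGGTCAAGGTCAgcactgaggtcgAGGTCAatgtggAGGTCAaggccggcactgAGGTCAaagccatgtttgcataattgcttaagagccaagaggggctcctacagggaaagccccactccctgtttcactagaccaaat
Pld1 intron, mm9 chr3:28012950-28013149, + strand: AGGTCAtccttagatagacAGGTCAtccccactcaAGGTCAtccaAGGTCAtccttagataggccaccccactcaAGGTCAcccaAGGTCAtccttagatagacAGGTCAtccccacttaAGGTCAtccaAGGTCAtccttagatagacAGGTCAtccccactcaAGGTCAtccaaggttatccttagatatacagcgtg
A further kind is a repeated element with the word GTGCACCA, in capitals with its overlapping reverse complement, at which Zkscan17 and Zfp808 both had peaks.
Zfp808 element, mm9 chr6:131154438-131154637, + strand: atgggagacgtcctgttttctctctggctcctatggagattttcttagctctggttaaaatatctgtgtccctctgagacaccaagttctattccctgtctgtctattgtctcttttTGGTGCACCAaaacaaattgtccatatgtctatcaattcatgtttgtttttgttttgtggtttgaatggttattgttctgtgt

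The Zkscan17 peaks were mostly small. The deposited score, 10 times the negative log10 of the MACS p-value, ran from 50.01 to 830.97 with a median of 58.83. Fold enrichment over the control ran from 10.01 to 42.94 with a median of 14.31, and the peaks held 7 to 94 tags with a median of 9. Most peaks thus lay close to the calling thresholds, and 70 of 1107 had a score over 100. Of all peaks, 1061 had a deposited false discovery rate of at most 5%, but none of the 20 with the highest score did. Called widths had a median of 154 bp and ranged from 71 to 757 bp. The plot of score against fold enrichment shows how few peaks left the dense corner at low values, and that peaks of the Zkscan17 gene and of the AGGTCA tandems were among them.

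**Figure D1:**
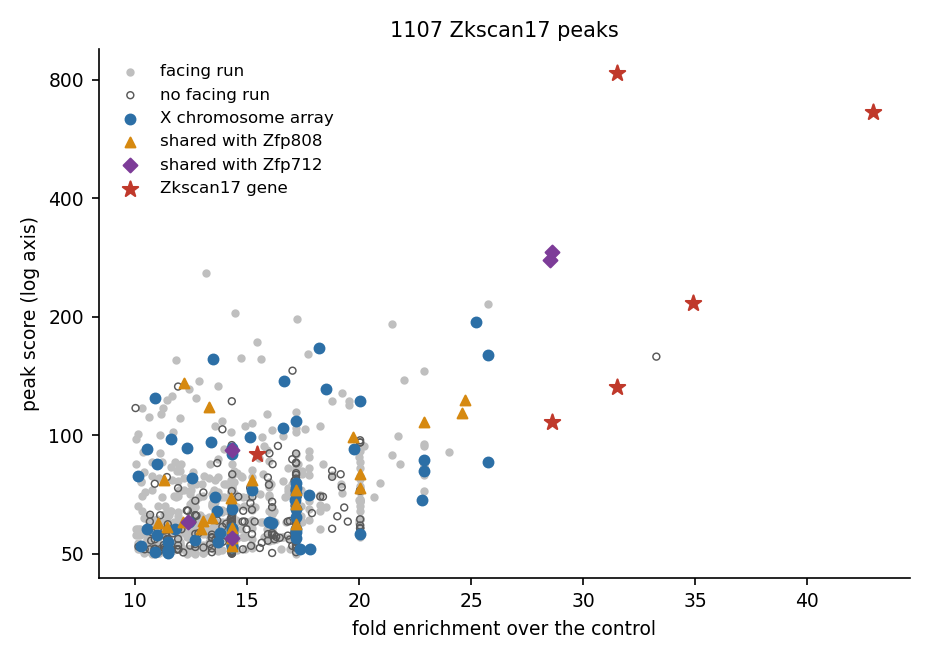
Score (log axis) against fold enrichment of the 1107 Zkscan17 peaks, 1 point per peak, with filled grey points beside a facing A or T run, open points without one, and coloured symbols for peaks in the X chromosome stretch, in the Zkscan17 gene, and at loci shared with Zfp808 or Zfp712. Peaks of the Zkscan17 gene (stars) hold the highest scores, 830.97 and 663.95, and the bulk lies near the median score of 58.83.

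Runs of A or T were frequent near the Zkscan17 summits, in one orientation. A run was counted as facing where at least 12 A lay on the lower-coordinate side or at least 12 T on the higher-coordinate side, within 250 bp of the summit, which is to say that on one of the strands a run of A is followed by the summit. A facing run was found at 829 of 1107 peaks (74.9%, 72.2 to 77.4). The opposite arrangement, T before and A after the summit, was found at 31 peaks (2.80%, 1.98 to 3.95). Across 25585 windows placed every 100 kb along the genome, 3.01% had a facing run and 2.94% an opposite one. The excess within 250 bp thus concerned one orientation, and the opposite one was at the level of the genome windows.

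The facing runs had a median length of 17 bp and a median distance of 143 bp from the summit, with quartiles of 105.5 and 179 bp. Runs of A were most frequent from 175 to 100 bp on the lower side, with 6.68 to 7.77 runs per 100 summits in each bin of 25 bp, and runs of T from 100 to 200 bp on the higher side, with 6.05 to 6.78. On the lower side 431 peaks had a facing run and on the higher side 426, with 28 peaks having both. Both flanks were used about equally, as the plot of runs by distance shows. With a minimum of 10 letters in place of 12 the share of peaks with a facing run was 79.2%, and with 15 letters it was 53.0%.

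**Figure D2:**
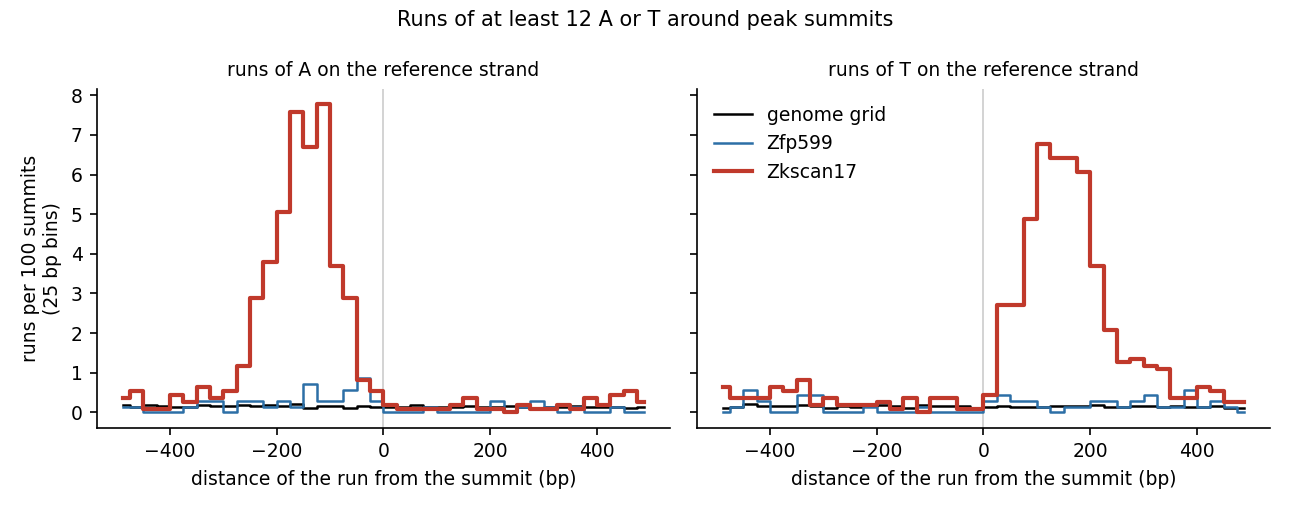
Runs of at least 12 A (left) or T (right) per 100 summits in bins of 25 bp, by distance from the summit, for Zkscan17, for Zfp599 (another F9 sample with an N-terminal HA tag) and for the genome windows. The Zkscan17 line rises to 7.77 on the lower side for A and to 6.78 on the higher side for T, and does not exceed 0.813 on the other side of either panel.

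The facing runs were not particular to Zkscan17. Of the 29 other F9 HA samples, 9 had a higher share and 20 a lower one, from 0% in Rex2 to 90.4% in Zfp953. The samples fell on both sides of a gap, with 15 of the 29 at 57.5% or more and 14 at 25% or less, and Zkscan17 was in the upper set. The 6 samples with the thresholds of Zkscan17 all had 57.5% or more (Gm13235 89.9%, Zfp457 85.2%, Zfp933 77.3%, Zfp709 71.6%, Zfp458 65.5%, Zfp600 57.5%), and so did 9 of the 23 with the stricter p threshold. Among the 6 other samples with an N-terminal tag, Zfp600 had 57.5% and the remaining 5 had 6.76% or less. Outside this set, 6 of 10 F9 HA samples called against another control and 4 of 18 F9 FLAG samples exceeded 50%, while the 9 ES cell samples had 0.461 to 3.50%. The labels give the ES samples another cell type, a mapping without trimming of the first 3 bases and no enrichment threshold for the peak calls. These differences cannot be told apart. The source of the facing runs was not tested.

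**Figure D3:**
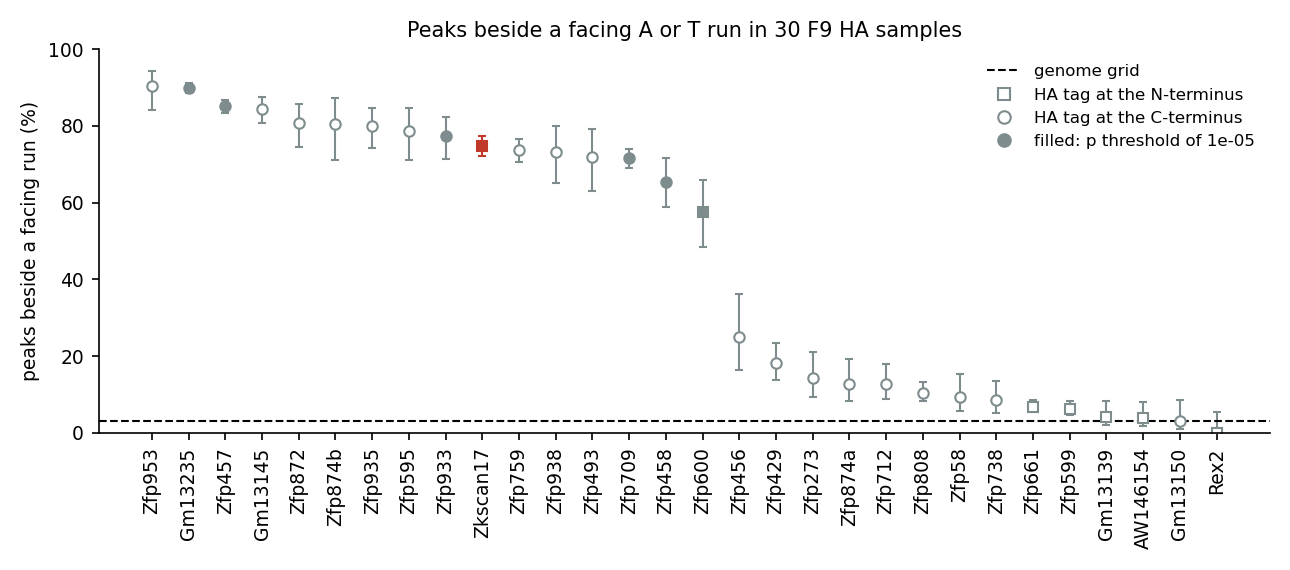
Share of peaks with a facing A or T run (percent, 95% Wilson interval) in the 30 F9 HA samples, ordered by share, with Zkscan17 in red, squares for an N-terminal and circles for a C-terminal HA tag, and filled symbols for the p threshold of 1e-05. Zkscan17, at 74.9%, lies in the upper set of 16 samples, and the dashed line gives the 3.01% of the genome windows.

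Peaks with and without a facing run had similar heights. The 829 peaks with a run had a median score of 59.37, a median fold of 14.26 and 9 tags, and the 278 without had 57.95, 14.31 and 8. Their highest values differed, with a score of 258.21 among peaks with a run and 830.97 among those without. Of the 70 peaks with a score over 100, 54 had a facing run, and of the 18 that also had a fold over 20, 8 did. The 278 peaks without a run held all 6 peaks of the Zkscan17 gene, all 5 peaks shared with Zfp712 and 19 of the 23 peaks shared with Zfp808, which are described next. They were multi-copy in 30.9% (25.8 to 36.6) against 16.9% (14.5 to 19.6) of the peaks with a run, and overlapped a peak of another F9 HA sample in 13.3% (9.81 to 17.8) against 8.32% (6.63 to 10.4).

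The Zkscan17 gene held the strongest peaks. The gene (ENSMUSG00000020472.8) lies on chromosome 11 from 59299022 to 59340253 on the minus strand of mm9, and 1755 of its 41232 bp (4.26%) are coding. All 6 peaks in it had their summit in a coding exon, and 6 of the 7 coding exons held one. Their scores were 663.95, 216.94, 108.29, 89.79, 132.6 and 830.97 in the order of transcription, which ranked 2, 6, 55, 104, 29 and 1 among the 1107 peaks. Their fold enrichments in that order were 42.94, 34.9, 28.63, 15.44, 31.49 and 31.49, including the highest 2 of the Zkscan17 peaks. The highest scores thus lay in the first and the last coding exon, which are also the longest at 390 and 749 bp. No peak was called in the introns or in the untranslated exons.

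**Figure D4:**
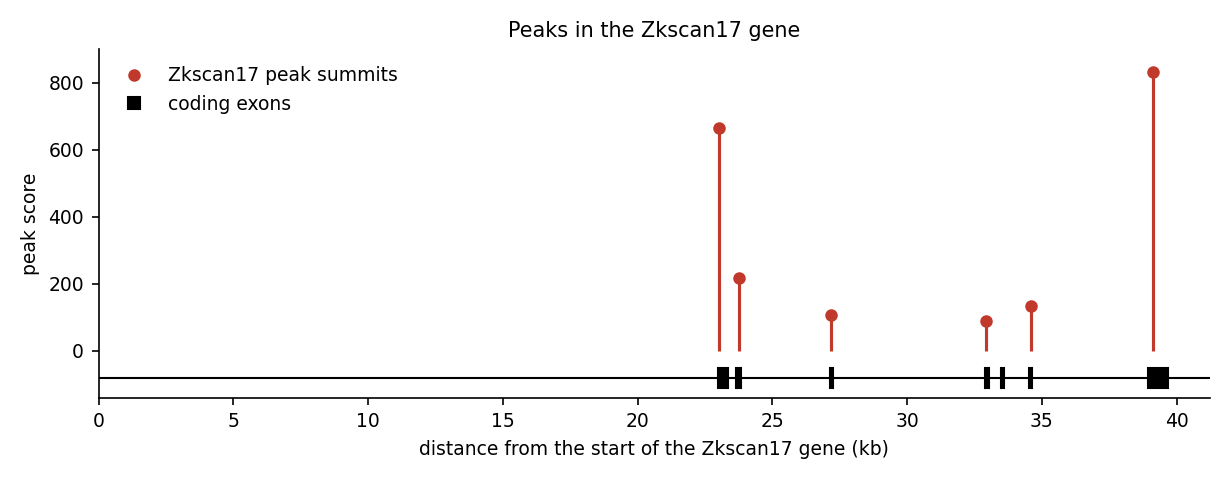
Scores of the 6 Zkscan17 peaks in the Zkscan17 gene by the distance of their summit from the gene start in kb, above the 7 coding exons (black boxes). Each summit stands over a coding exon, and 1 coding exon has none.

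The tagged Zkscan17 reading frame added to these cells and the coding exons of the chromosomal gene have the same letters unless codons were altered, so reads from either cannot be told apart. None of the other samples overlapped these 6 peaks, and the gene held 2 peaks of other samples, of Gm13251 and Zfp709. Among the 29 F9 HA samples whose own gene was annotated, Zkscan17 was the single one with a peak in the gene of its tagged protein, and across 62 such samples of the series 5 had one, the other 4 being F9 FLAG samples.

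At tandems of AGGTCA, 4 of 5 Zkscan17 peaks coincided with peaks of other proteins, 3 of them with Zfp712. The letters AGGTCA, which form the half-site of many nuclear receptors, occurred at least 4 times on either strand in 5 Zkscan17 windows (0.452%, 0.193 to 1.05), in 9.14% of the 197 Zfp712 windows and in 2 of the 25585 genome windows. The highest of the 5, in an intron of the calpain gene Capn2 (chr1:184431225-184431424, 7 copies), had a score of 291.67 and a fold of 28.63, and Zfp456 and Zfp712 peaks overlapped it. The second, in an intron of the phospholipase D gene Pld1 (chr3:28012950-28013149, 11 copies), had 279.44 and 28.52, with Zfp712 and Zfp810 peaks. The third, in an intron of Plcz1, the sperm phospholipase C zeta (chr6:139968505-139968704, 7 copies), had 158.44 and 33.27 and overlapped no peak of another sample. The last 2, side by side between genes with Glrx3 as the nearest on chromosome 7, had scores of 91.62 and 89.91, the one overlapping Zfp712 and the other Zfp493 and Zfp810. Zfp712 itself had scores of 1437.29, 863.91 and 1655.22 at the 3 it shared, which were among its 22 highest. In all, 5 Zkscan17 peaks lay within 150 bp of a Zfp712 summit, and the other 2, without a tandem, had Zkscan17 scores of 60.38 and 54.85. Among all 1107 Zkscan17 peaks, 133 overlapped a peak of any other sample. AGGTCA was itself found in these data, as a word of Zfp712 peaks. The overlap with Zfp712 at its tandems was therefore not independent evidence.

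The Zfp808 loci were a repeated element. Of the 1107 Zkscan17 peaks 23 (2.08%, 1.39 to 3.10) overlapped a Zfp808 peak, which was 4.23% of the 544 Zfp808 peaks. At these loci Zfp808 had scores from 1249.68 to 3100 with a median of 3100, a score that 153 of its 544 peaks had, against a median of 1957 over all its peaks. Zkscan17 itself had a median score of 69.49 there, from 52.47 to 135.71. The word GTGCACCA lay in 35 Zkscan17 windows (3.16%, 2.28 to 4.37) on either strand, in 381 of 544 (66.1 to 73.7%) of Zfp808 windows and in 0.661% of the genome windows, and 21 of the 23 shared peaks held it. When Zkscan17 windows were aligned to each other, a family of 28 windows on 14 chromosomes contained 22 of the shared peaks, and 24 of its members held the word. Among the peaks without a facing run and outside the X chromosome stretch and the Zkscan17 gene, the 8-letter word most enriched at the centre was TGCACCAA, in 17 of 265 centres and in none of 530 flanks, which overlaps GTGCACCA by 7 letters. These peaks included most of those shared with Zfp808, whose windows resemble each other, and GTGCACCA was itself found in these data. The match of the words was therefore not independent evidence.

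Zkscan17 peaks were concentrated in 1 stretch of the X chromosome. From position 120155007 to 122615172, a span of 2.46 Mb or 0.0927% of the genome, there were 66 peaks, which is 5.96% (4.71 to 7.52) of all Zkscan17 peaks. Taking the stretch with the most peaks on each chromosome, with gaps of at most 250 kb between peaks, the next held 6 peaks and was the Zkscan17 gene, and the others held 4 or fewer. The X chromosome as a whole had 10.0% of the peaks against 6.28% of the genome length, and outside the stretch 4.32%. Of the 66 windows, 65 were multi-copy with a median of 13 copies, and 50 aligned over at least 150 bp to another window of the stretch with a median best identity of 98.6%, and the authors placed the reads of such copies at random among them. Windows placed every 100 kb in the stretch were multi-copy in 22 of 23 cases as well.

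The stretch holds 43 annotated genes, including 10 Astx genes (amplified spermatogenic transcripts) and 13 pseudogenes. Of the 66 summits, 65 were between genes, and 58 lay upstream of the nearest transcript start, of which none was that of an Astx gene. The windows had a median GC content of 27.5% against 37.5% in the genome windows of the stretch. Scores ran from 50.28 to 194.31 with a median of 65.06, 10 peaks exceeded a score of 100, and 59 of the 66 had a facing run. The word ACCCTAAA, on either strand, was in 47 of all 1107 Zkscan17 windows (4.25%, 3.21 to 5.60), inside or outside the stretch, and in 0.774% of the genome windows. It was found in these data, and many windows of the stretch are copies of each other, so its excess over the genome windows was not a test. The peaks formed 17 groups separated by gaps of more than 80 kb, as the plot along the stretch shows.

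**Figure D5:**
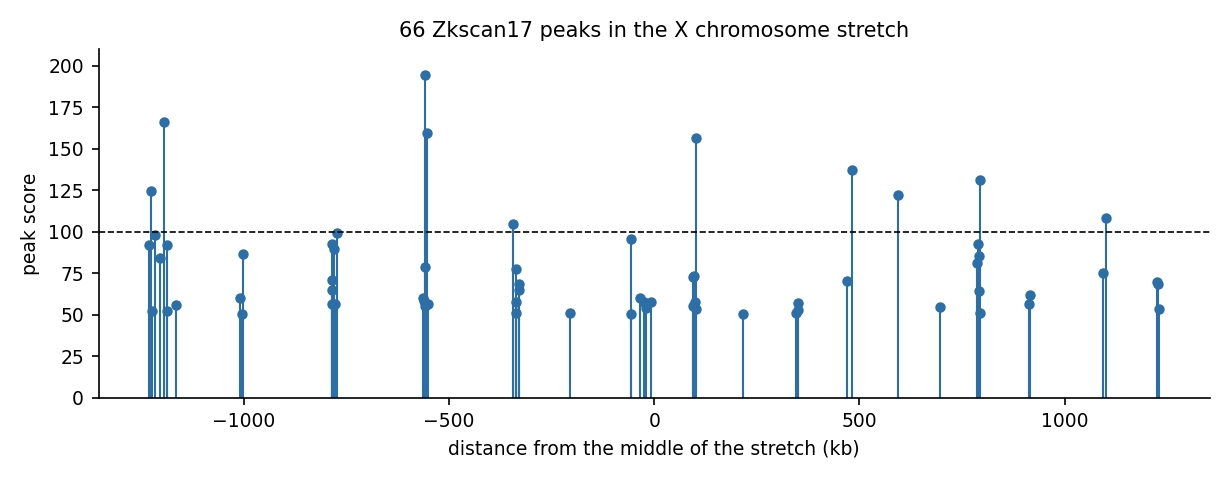
Scores of the 66 Zkscan17 peaks in the X chromosome stretch by distance of the summit from its middle in kb, 1 line per peak, with a dashed line at a score of 100. The peaks stand in 17 groups, and 10 exceed a score of 100.

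Peaks in the stretch were not particular to Zkscan17. Zfp931 in ES cells had 16 of 346 peaks there (4.62%, 2.87 to 7.38), an interval that overlaps that of Zkscan17, and Gm14419 in ES cells had 24 of 3906 (0.614%). Of the 29 other F9 HA samples 20 had none, and together they had 16 of 11576 peaks in the stretch. The highest shares among them, Zfp874b with 2.17% (0.598 to 7.58), Gm13150 with 2.04% (0.561 to 7.14) and Zfp600 with 1.67% (0.458 to 5.87), rested on 2 peaks each, and their intervals overlap that of Zkscan17. Only 1 of the 66 Zkscan17 peaks overlapped a peak of any other sample. The limits of the stretch were set by the Zkscan17 peaks, and peaks in its copied sequence are not independent. Overlap of these intervals is therefore no test of a difference between samples.

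Of all Zkscan17 peaks, 9.58% overlapped a peak of another F9 HA sample by at least 25% of the 200 bp window. Zfp457 shared 28, Zfp808 23, Gm13235 22, Zfp709 11 and Zfp759 8. The loci shared with Zfp457 and Gm13235 had a facing run in 21 of 28 and 20 of 22 cases, against 4 of 23 for Zfp808. Over all Zkscan17 peaks 829 of 1107 (74.9%) had one, so the share at the Zfp457 loci was that of the peaks in general. The shared loci thus included some beside a run, as most Zkscan17 peaks were, and some at the Zfp808 element. The shared loci were 1.55% of the 1812 peaks of Zfp457 and 1.23% of the 1791 of Gm13235.

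Each of the gene lists examined had 0 to 2 members with a Zkscan17 summit within 10 kb of a transcript start. Summits were within 1 kb of the transcript start of 49 of 37273 annotated genes, 0.131% of the genes, and within 10 kb of 396 genes (1.06%), and 400 genes (1.07%) had a summit inside. Of the 49 genes, 34 were protein-coding, and the highest score near any of them was 161.18, at the pseudogene Gm13392. Among the 23 pluripotency genes Dppa2, expressed in pluripotent cells and the germ line, had a summit within 1 kb, at 817 bp and with a score of 50.07, and Pou5f1, which encodes Oct4, had one at 7175 bp with a score of 51.35. Both were close to the lowest score of 50.01.

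Of the 21 genes of KAP1 and the heterochromatin machinery none had a summit within 1 kb. Atf7ip, a partner of the H3K9 methyltransferase SETDB1, had one at 1706 bp with a score of 145.96, and Ehmt1, which encodes the H3K9 methyltransferase GLP, had one at 4187 bp with a score of 51.99. None of the 7 H3K36 methyltransferases and readers, 19 imprinted genes and 41 Hox genes had a summit within 10 kb. Of 29 SCAN genes the Zkscan17 gene was the only one within 10 kb. Of the 64 annotated KRAB zinc finger genes assayed in the series, Zfp600 had a summit 56 bp from its start, with a score of 67.31 in a window of 5 copies. Among 144 genes matched as ribosomal protein genes by symbol, Rps6kb1, which encodes an S6 kinase and not a ribosomal protein, had one at 7325 bp with a score of 85.59. With 0 to 2 genes per list, the counts were too small to set against the background shares.

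Against the other 29 F9 HA samples, 9 measures were tested by an exact permutation over the 30 samples, two-sided, with a smallest p of 0.0333. None passed after Benjamini-Hochberg adjustment over the 9, and since this p is the smallest that 1 sample against 29 can give, a single measure could not pass, so the tests do not show that Zkscan17 was like the others. The called width came nearest, with a Zkscan17 median of 154 bp against a mean of 336 bp (SD 193, n = 29) and only Zfp600 lower at 150 bp (p = 0.1, adjusted p = 0.6, permutation). That order depended on the deposited thresholds: at a score over 100 and a fold over 10 in every sample the median was 297 bp against 342 bp, with 14 of the 29 others lower. Median GC content was 39.0% against 46.6% (SD 4.43), with Zfp808 at 35.0% and AW146154 at 38.5% below it (p = 0.133, adjusted p = 0.6, permutation) and the genome windows at 41.5%. Both values lay within the range of the other samples.

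The share of summits within 1 kb of a transcript start was 4.16% in Zkscan17 and 10.5% (SD 9.93) in the others, from 1.49% in Rex2 to 48.6% in Zfp456, with 4.26% in the genome windows (permutation p = 0.433, adjusted p = 0.686). Between genes lay 62.1% against 55.3% (SD 10.2), with 59.0% in the genome windows (permutation p = 0.467, adjusted p = 0.686). Multi-copy windows were 20.4% against 22.4% (SD 21.8), with 19.4% in the genome windows (permutation p and adjusted p = 1). By these 3 measures the peaks as deposited were near the genome windows, but the multi-copy share was 37.1% at a score over 100, 42.0% among the 100 highest peaks and 44.4% with a fold over 20 as well. The CpG observed over expected ratio was 0.200 against 0.284 (SD 0.148, permutation p = 0.633, adjusted p = 0.713), the median fold was 14.3 against 24.4 (SD 11.2, p = 0.433, adjusted p = 0.686), and the share of peaks that overlapped another sample was 9.58% against 27.2% (SD 21.1, permutation p = 0.533, adjusted p = 0.686).

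Neither of 2 motifs, each found on one set of chromosomes, was more frequent at held-out centres than in their flanks. In the 437 single-copy peaks of the odd chromosomes the 8-letter word most enriched in the 100 bp around the summit was CTGTGAAA, in 7 centres and in none of 874 flanks. The matrix refined from it matched 14 of 444 centres (3.15%, 1.89 to 5.22) on the other chromosomes and 42 of 887 flanks (4.74%, 3.52 to 6.34), so the centres did not exceed the flanks. Starting from the other chromosomes, the word was ATAAATTC and the matrix matched 8 of 437 held-out centres (1.83%) and 45 of 874 flanks (5.15%). This second matrix consists mainly of A, and the flanks, 200 to 300 bp from the summit, reach into sequence that also held facing runs. In 200 bp windows of the held-out chromosomes it was in 13.95% for Zkscan17, against a mean of 3.83% in the other samples, of which 28 were lower. Across samples the first matrix was in 6.43% of Zkscan17 windows, in 10.2% (SD 5.97) of those of the others and in 8.39% of the genome windows (permutation p = 0.5, adjusted p = 0.686). Of the single-copy peaks without a facing run, outside the stretch and the gene, 6 of 186 centres held the leading word AAATAAAC, against 1 of 372 flanks.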

How the data were processed

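According to the labels and methods, the authors trimmed the first 3 bases of the reads, mapped them to mm9 with Bowtie, placing reads with several best positions at random, called peaks with MACS 1.4.2 in each sample against the F9 input and the HA control, and set each to 200 bp around its summit. The deposited table gives tag counts, a score (10 times the negative log10 of the p-value), a fold enrichment ratio over the control and a false discovery rate in percent, all the authors' values. The 244 rows of 1 name with no label (Zfp92) were left out, and the peaks of the labelled Zfp94 were not analysed here; whether these are 1 sample is not known from the labels. Windows were read from NCBIM37 (mm9) with Gencode vM1 genes using pysam 0.24.0, aligned with blastn 2.17.0 (at least 100 bp for a family), and called multi-copy at a median of at least 2 genomic copies of their 24-letter words. The search for runs, the motif search, the permutation test and the adjustment were tested on simulated data. Peaks named are the 10 highest by score, the 5 highest by fold and those in the Zkscan17 gene, where a comparison turned on them; genes named are list members within 1 kb, or else 10 kb, of a summit, and samples the highest, the lowest, the 5 sharing most loci and those with the same thresholds. Further peaks, samples and words were picked with their values in view. The members and lists were chosen with earlier results of these data known, and the facing runs, the X chromosome stretch and the shared words were found in these data.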

Additional observations from a re-analysis of the deposited data

How the results depend on the processing

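Each of the 9 measures was recomputed with other peaks, samples and settings, of which leaving out the X chromosome stretch with the Zkscan17 gene, and leaving out peaks with a facing run in every sample, were chosen after seeing the data. The permutation tests could hardly pass after adjustment under any setting, so they say nothing about stability, and only directions and sizes are given. The side of the mean of the others on which Zkscan17 lay turned for multi-copy windows, to 37.1% (score over 100), 44.4% (also fold over 20), 42.0% (100 highest peaks), 20.4% against 14.2% (same thresholds) and 30.9% against 29.2% (no facing run). It also turned for summits between genes (44.4%) and overlap with other samples (27.8%) at a score over 100 and fold over 20, and, among samples with the same thresholds, for CpG ratio (0.200 against 0.199) and median fold (14.3 against 12.4), where the smallest p is 0.143. At a score over 100 and fold over 20 there were only 18 Zkscan17 peaks, of which 5 lay in coding exons of the Zkscan17 gene. The motif share turned to 10.5% without peaks with a facing run, and to 13.95% against 3.83% for the matrix found on the even chromosomes and X, which consists mainly of A. The median called width rose from 154 bp to 297 bp at a score over 100, 258.5 bp with a fold over 20 as well and 270 bp for the 100 highest peaks, with 14, 8 and 5 other samples lower in place of 1. Without a change of side, the overlap share became 15.7% at a score over 100 and 5.0% for the 100 highest peaks, the motif share 0% and 1.56%, and the share near transcript starts 0% at a score over 100 and fold over 20. The 49 genes with a summit within 1 kb became 217 within 5 kb, 3 at a score over 100 and 13 without peaks with a facing run. Of the peaks, 10.3% had another within 10 kb; this was 8.49% within 5 kb, 4.83% without the stretch and the gene, and 5.04% without peaks with a facing run. The cause was not tested. No paired analysis was possible because each protein had 1 sample. Depths are unknown, so a missing peak says only that none was called.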

Other observations

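Several Zkscan17 peaks of high score outside the groups of the report stood beside a run. A facing run was as common among all peaks, at 829 of 1107 (74.9%), and 14 of the 20 highest by score had one. The Manba intron peak (a gene of lysosomal beta-mannosidase; chr3:135215870-135216069) had a score of 258.21 with 60 tags but a fold of 13.14, ranking 709 by fold, and a run of 20 letters 27 bp from its summit. A pair of peaks near Car2, 93 to 94 kb away on chromosome 3, had scores of 196.97 and 172.9, and a pair near the pseudogene Gm7429 on the X chromosome had 204.51 and 157.47. All 4 had a facing run, of 13, 16, 14 and 13 letters. Apart from the families of the X chromosome stretch (70 windows, of which 54 in the stretch) and of the Zfp808 element (28 windows), alignment of Zkscan17 windows to each other gave 2 families of 15 windows, on 10 and 9 chromosomes, of which 0 and 1 windows were shared with another F9 HA sample. In all, 183 windows (16.5%) fell into 25 families.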
